A study of Mus musculus with 24 samples.

Results

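Collagens are the structural proteins of the extracellular matrix, and in the mouse each chain has its own gene, whose symbol gives the type and the chain. All 44 genes with a symbol of the form Col, type number, a, chain number were examined in retroperitoneal white adipose tissue, out of 56895 gene entries in the deposited tables. They comprised 11 fibrillar collagens, 8 basement membrane collagens (the type IV chains with types XV and XVIII) and 25 others, among them the type VI filaments, the fibril-associated collagens and the transmembrane collagens. The tissue came from 24 C57BL/6J mice in 8 groups of 3, with 1 RNA-seq library per mouse. Before mating and while pregnant, dams were fed vitamin D3 at 1.0 IU per g of diet (CTRL) or a deficient diet at 0.0 IU per g (VDD), and after birth all were fed the control diet. Male and female offspring were given a low-fat diet (LF) or a high-fat diet with 45% of its energy from fat (HF) from 6 weeks of age, for 8 weeks. The groups thus differed by sex and by what dam and offspring were fed, and by no genetic change. The litter of each mouse was not given in the sources used here, so p-values measure the spread between these mice, some of which may be littermates.

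Fibrillar collagens are secreted as triple-helical procollagens, trimmed by proteinases, assembled into fibrils and joined by lysyl oxidases. Type IV chains form the sheet-like basement membrane around each adipocyte and each capillary, and types XV and XVIII are proteoglycan collagens of the same zone. Type VI chains build the beaded filaments that are characteristic of fat, a tissue in which fibroblasts and adipocyte progenitors make much of the matrix that is remodelled as fat cells enlarge.

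The letters before the start of transcription are shown for 4 collagens that rose under HF and stand for 4 kinds of matrix, a type III fibril chain, a type V chain, a type VI filament chain and type XVIII. They are RefSeq windows on GRCm38 (mm10), the genome build of the files, printed 5′ to 3′ and ending before any annotated exon. Capitals mark CCAAT or TATAAA on either strand, so that ATTGG is CCAAT read on the other strand. The windows lie at chr1:45311288-45311537 on the + strand for Col3a1, chr9:20815118-20815317 on the - strand for Col5a3, chr10:76623631-76623880 on the - strand for Col6a2 and chr10:77166549-77166780 on the - strand for Col18a1.
Col3a1: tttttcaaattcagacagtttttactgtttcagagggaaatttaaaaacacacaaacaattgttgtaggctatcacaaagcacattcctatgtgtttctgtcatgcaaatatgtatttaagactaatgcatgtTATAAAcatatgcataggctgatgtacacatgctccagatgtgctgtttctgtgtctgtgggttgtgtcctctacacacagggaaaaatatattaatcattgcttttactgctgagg
Col5a3: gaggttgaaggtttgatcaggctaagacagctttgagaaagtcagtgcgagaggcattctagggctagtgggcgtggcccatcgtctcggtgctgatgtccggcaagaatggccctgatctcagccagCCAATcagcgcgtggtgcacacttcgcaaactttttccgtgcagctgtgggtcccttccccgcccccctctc
Col6a2: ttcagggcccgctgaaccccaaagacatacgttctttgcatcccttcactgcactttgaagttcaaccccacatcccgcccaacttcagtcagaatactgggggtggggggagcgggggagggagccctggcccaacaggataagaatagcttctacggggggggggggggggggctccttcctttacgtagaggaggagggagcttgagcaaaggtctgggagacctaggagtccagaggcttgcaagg
Col18a1: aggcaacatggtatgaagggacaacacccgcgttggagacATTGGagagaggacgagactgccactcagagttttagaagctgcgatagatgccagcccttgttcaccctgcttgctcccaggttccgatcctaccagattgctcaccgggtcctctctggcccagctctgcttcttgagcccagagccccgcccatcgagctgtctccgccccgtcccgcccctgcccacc
Windows of 250 bases before a RefSeq start were at hand for 35 of the 44 collagens and for 27025 genes in all. CCAAT was found in 13 of the 35 (37.1%) and in 37.5% of all genes, and TATAAA in 5 (14.3%) and in 14.3% of all genes. GGGCGG, a GC box, was found in 21 (60%) and in 35.4% of all genes, and TGANTCA, the letters of an AP-1 element, in 1 (2.86%) and in 7.82% of all genes. Both strands were searched, and overlaps between motifs were kept. Among the 12 collagens with a window that rose under HF, CCAAT was found in 6, GGGCGG in 7 and each of the other motifs in 1. These matches are descriptions of the letters in the windows. Col4a1 and Col4a2 start head to head on chromosome 8, the RefSeq span of Col4a1 (11198423 to 11312889) overlapping that of Col4a2 (11312805 to 11449287), so no window is printed for them.

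Libraries held between 13346779 and 18484346 reads on genes (median 15933506). Levels below are reads scaled to a common depth over the 24 libraries, and tests were made with limma on log2(scaled reads + 1). A gene was called when its Benjamini-Hochberg adjusted p over all genes tested was under 0.01 and its fold change was above 1.5 or below 0.66. Adipoq and Plin1, which mark fat cells, were abundant in every library, Adipoq between 44740 and 109716 scaled reads. VDD LF male 2310 stood apart with 1118670 scaled reads summed over 12 striated muscle markers, against 368, 793 and 75626 in the CTRL LF males. VDD HF males 2307 and 2298 and VDD LF female 2303 held 391211, 266454 and 171122 such reads, and the last also held 10226 reads on 10 kidney markers. CTRL HF females 2290 and 2292 and VDD HF female 2121 held 9882, 32574 and 18880 reads on 10 adrenal markers, which include the steroid-producing genes Star, Cyp11a1 and Hsd3b1 that the ovary also uses, while Cyp11b2 was at 0 in each library. The collagen counts that follow for averaged comparisons are given with and without these 7 libraries. Counts of other genes, the collagen-handling genes and the cell type markers, are given with all 24 libraries unless stated.

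Collagen genes took between 0.147% and 1.08% of the reads on genes, a 7.34-fold range. The share was 0.344%, 0.216% and 0.374% in CTRL LF males and 0.672%, 0.989% and 0.863% in CTRL HF males. It was 0.162%, 0.263% and 0.241% in VDD LF males and 0.685%, 0.689% and 1.01% in VDD HF males. In males of both maternal groups each HF mouse lay above each LF mouse. In females the share was 0.576%, 0.324% and 0.339% in CTRL LF and 1.08%, 0.893% and 0.685% in CTRL HF mice. It was 0.153%, 0.147% and 0.227% in VDD LF females and 0.311%, 0.207% and 0.416% in VDD HF females. CTRL females did not overlap between diets, whereas VDD HF female 2083 lay below the highest VDD LF female. The 3 VDD HF females also lay below all 3 CTRL HF females. In bulk tissue, fewer cells of a type and less RNA per cell cannot be told apart.

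**Figure D1:**
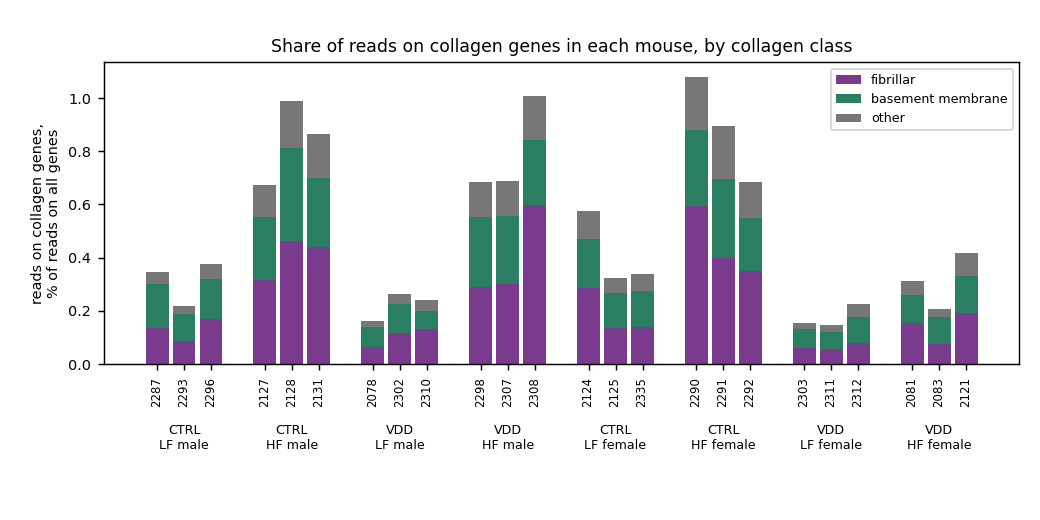
Share of reads on collagen genes (y axis, % of reads on all genes) in each of the 24 mice (x axis, mouse number above its group), stacked by collagen class. The 9 bars of CTRL HF males, VDD HF males and CTRL HF females reach 0.672% or more, and those of VDD HF females 0.416% or less.

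A few genes supplied most of these reads. Per kilobase of the longest protein-coding transcript, Col3a1, which encodes the chain of the pliable type III fibril, had the highest level at 2869 scaled reads per kb (mean of 24 libraries). It was followed by Col4a1 (2017) and Col4a2 (1166), the pair of chains that form the common type IV network, by Col1a2 (1152) of the type I fibril and by Col6a1 (1027) of the type VI filament. Col3a1 carried 21.2% of collagen reads and Col4a1 17.8%. In all, 14 collagens averaged at least 1000 scaled reads: Col1a1, Col1a2, Col3a1, Col5a1, Col5a2, Col5a3, Col4a1, Col4a2, Col15a1, Col18a1, Col6a1, Col6a2, Col6a3 and Col14a1. At the other end Col2a1, Col9a1, Col10a1, Col19a1 and Col25a1, which include collagens of cartilage, did not reach 10 scaled reads in 3 libraries, so 39 of the 44 members entered the fit of all libraries. In the abundant pairs Col4a1 with Col4a2 and Col1a1 with Col1a2, the ratio of the chains varied less than their levels. The ratio of Col4a1 to Col4a2 reads stayed between 1.57 and 2.22 while Col4a1 itself varied 4.16-fold. The ratio of Col1a1 to Col1a2 lay between 0.38 and 0.681 while Col1a1 varied 14.3-fold. The less abundant type IV chains Col4a5 and Col4a6 kept no such proportion, with 59.4 and 2.97 scaled reads in VDD LF male 2302 and 592 and 211 in VDD LF male 2310.

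The high-fat diet was asked about by comparing HF with LF, averaged over sexes and maternal groups in 1 limma fit of the 24 libraries. Of the 39 collagens tested, 14 rose and none fell, where 9.44% of all 18399 genes tested were called and 5.79% were called higher. The 14 were Col1a1, Col1a2, Col3a1, Col5a1, Col5a2 and Col5a3 among 10 fibrillar collagens, Col4a1, Col4a2, Col15a1 and Col18a1 among 8 basement membrane collagens, and Col6a1, Col6a2, Col6a3 and Col16a1 among 21 others. The median log2 change was 0.64 over the collagens and 0.01 over all genes, with medians of 1.05 for fibrillar, 0.58 for basement membrane and 0.60 for other collagens. In the 4 strata of sex and maternal group, 21 of 39 were higher under HF in each, against 20.8% of all genes. With the 7 libraries named above left out, 15 were called, all higher.

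**Figure D2:**
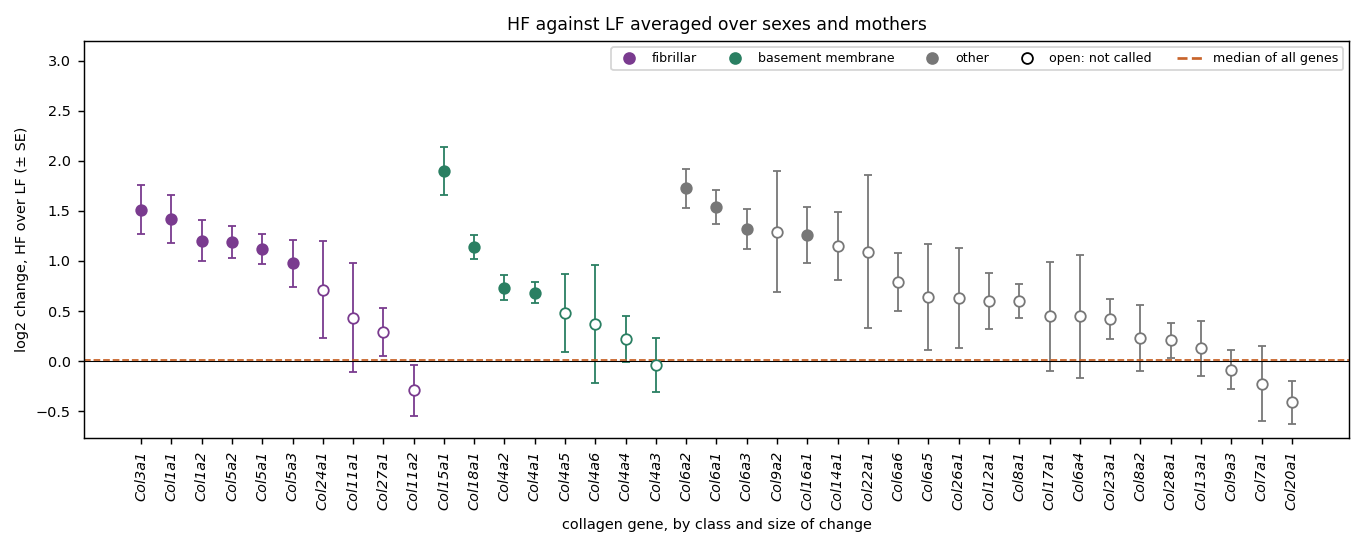
Log2 change of each of the 39 tested collagens (x axis, by class) under HF relative to LF, averaged over sexes and maternal groups (y axis, estimate ± SE, limma over 24 libraries). Filled points are the 14 called genes, all above 0, and the dashed line is the median of all genes tested at 0.01.

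Among fibril-forming genes, Col3a1 was the most abundant. In males it had 7627, 6777 and 11155 scaled reads in CTRL LF and 23756, 30861 and 26583 in CTRL HF mice, and 3778, 6047 and 11959 in VDD LF and 15805, 16326 and 45130 in VDD HF mice. In females it had 19584, 8853 and 8971 in CTRL LF and 41215, 26789 and 25996 in CTRL HF mice, and 5408, 3725 and 3944 in VDD LF and 13503, 4257 and 15084 in VDD HF mice. The diets did not overlap in 3 of the 4 pairs, the exception being VDD females, where female 2083 lay within the LF range. The averaged log2 change was 1.51 ± 0.24 (SE, adjusted p = 0.000202).

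Col1a1, the major chain of type I fibrils, also rose under HF. Its scaled reads were 1777, 1298 and 2165 in CTRL LF and 4273, 5023 and 6104 in CTRL HF males, and 671, 1437 and 2558 in VDD LF and 3429, 4293 and 9595 in VDD HF males. In females they were 5137, 2462 and 2323 in CTRL LF and 8418, 5797 and 5297 in CTRL HF mice, and 673, 864 and 1015 in VDD LF and 2219, 840 and 3184 in VDD HF mice. VDD HF female 2083 was again the only HF mouse within the LF range of its pair. The log2 change was 1.42 ± 0.24 for Col1a1 (adjusted p = 0.00034) and 1.20 ± 0.21 for its partner Col1a2 (adjusted p = 0.000339). The type V chains, which set the diameter of type I fibrils, rose by 1.12 ± 0.15 (Col5a1), 1.19 ± 0.16 (Col5a2) and 0.98 ± 0.23 (Col5a3) on the log2 scale. The remaining fibrillar genes tested were less abundant. Col24a1, Col11a1, Col27a1 and Col11a2 had log2 changes of 0.71, 0.44, 0.29 and −0.29 and were not called.

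Of the basement membrane collagens, Col15a1, a collagen at the border of basement membrane and fibrils, had the largest change of all members, 1.90 ± 0.24 on the log2 scale (3.73-fold, adjusted p = 2.51e-05). Its scaled reads were 1486, 1074 and 1258 in CTRL LF and 3082, 6820 and 3351 in CTRL HF males, and 597, 1014 and 435 in VDD LF and 6677, 5542 and 5249 in VDD HF males. In females they were 2796, 1716 and 1451 in CTRL LF and 4702, 11128 and 3393 in CTRL HF mice, and 1998, 725 and 649 in VDD LF and 1807, 1452 and 4005 in VDD HF mice. Only the VDD females overlapped between diets. Col18a1, the precursor of endostatin, had the smallest adjusted p, 6e-06, with a log2 change of 1.14 ± 0.12. Its 6 HF males lay between 3038 and 3696 scaled reads and its 6 LF males between 536 and 1567.

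Col4a1 and Col4a2 had smaller log2 changes than the 6 called fibrillar genes. Col4a1 had 15468, 11664 and 13588 scaled reads in CTRL LF and 22317, 24946 and 17234 in CTRL HF males, and 7601, 10807 and 6670 in VDD LF and 18836, 17190 and 17024 in VDD HF males. In females it had 14741, 10525 and 12405 in CTRL LF and 18357, 18128 and 13416 in CTRL HF mice, and 6659, 5993 and 7219 in VDD LF and 10083, 8463 and 10952 in VDD HF mice. CTRL females overlapped between diets and the other 3 pairs did not. The log2 changes were 0.68 ± 0.10 for Col4a1 (adjusted p = 0.000106) and 0.73 ± 0.12 for Col4a2 (adjusted p = 0.000265). The other type IV chains, which form specialised basement membranes such as that of the glomerulus, were not called: Col4a5 (0.48), Col4a6 (0.37), Col4a4 (0.22) and Col4a3 (−0.04). The highest Col4a3 level, 179 scaled reads where the other 23 libraries held at most 90.3, was that of VDD LF female 2303, the library with the kidney markers, and its part in these values was not tested.

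Of the 6 type VI chains tested, the 3 abundant ones rose, and the median log2 change over the 6 was 1.06. Col6a2 had 1724, 1094 and 2091 scaled reads in CTRL LF and 6561, 8050 and 5509 in CTRL HF males, and 684, 1559 and 1513 in VDD LF and 7127, 5783 and 6602 in VDD HF males. In females it had 3990, 1997 and 2347 in CTRL LF and 6951, 9671 and 5168 in CTRL HF mice, and 1076, 993 and 1178 in VDD LF and 2338, 1087 and 3721 in VDD HF mice. The 6 HF males lay between 5509 and 8050 and the 6 LF males between 684 and 2091, and female 2083 was again the exception among VDD females. The log2 changes were 1.73 ± 0.19 (Col6a2, adjusted p = 1.07e-05), 1.54 ± 0.17 (Col6a1, adjusted p = 1.06e-05) and 1.32 ± 0.20 (Col6a3, adjusted p = 0.000127). The less used chains Col6a4, Col6a5 and Col6a6 had log2 changes of 0.45, 0.64 and 0.79 and were not called. Among fibril-associated collagens, which decorate fibril surfaces, Col16a1 rose by 1.26 ± 0.28, while Col14a1 (1.15 ± 0.34, adjusted p = 0.0158) and Col12a1 (0.60 ± 0.28, adjusted p = 0.115) were not called. Col8a1, a network collagen of vessel walls, had a log2 change of 0.60 ± 0.17 (adjusted p = 0.012).

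**Figure D3:**
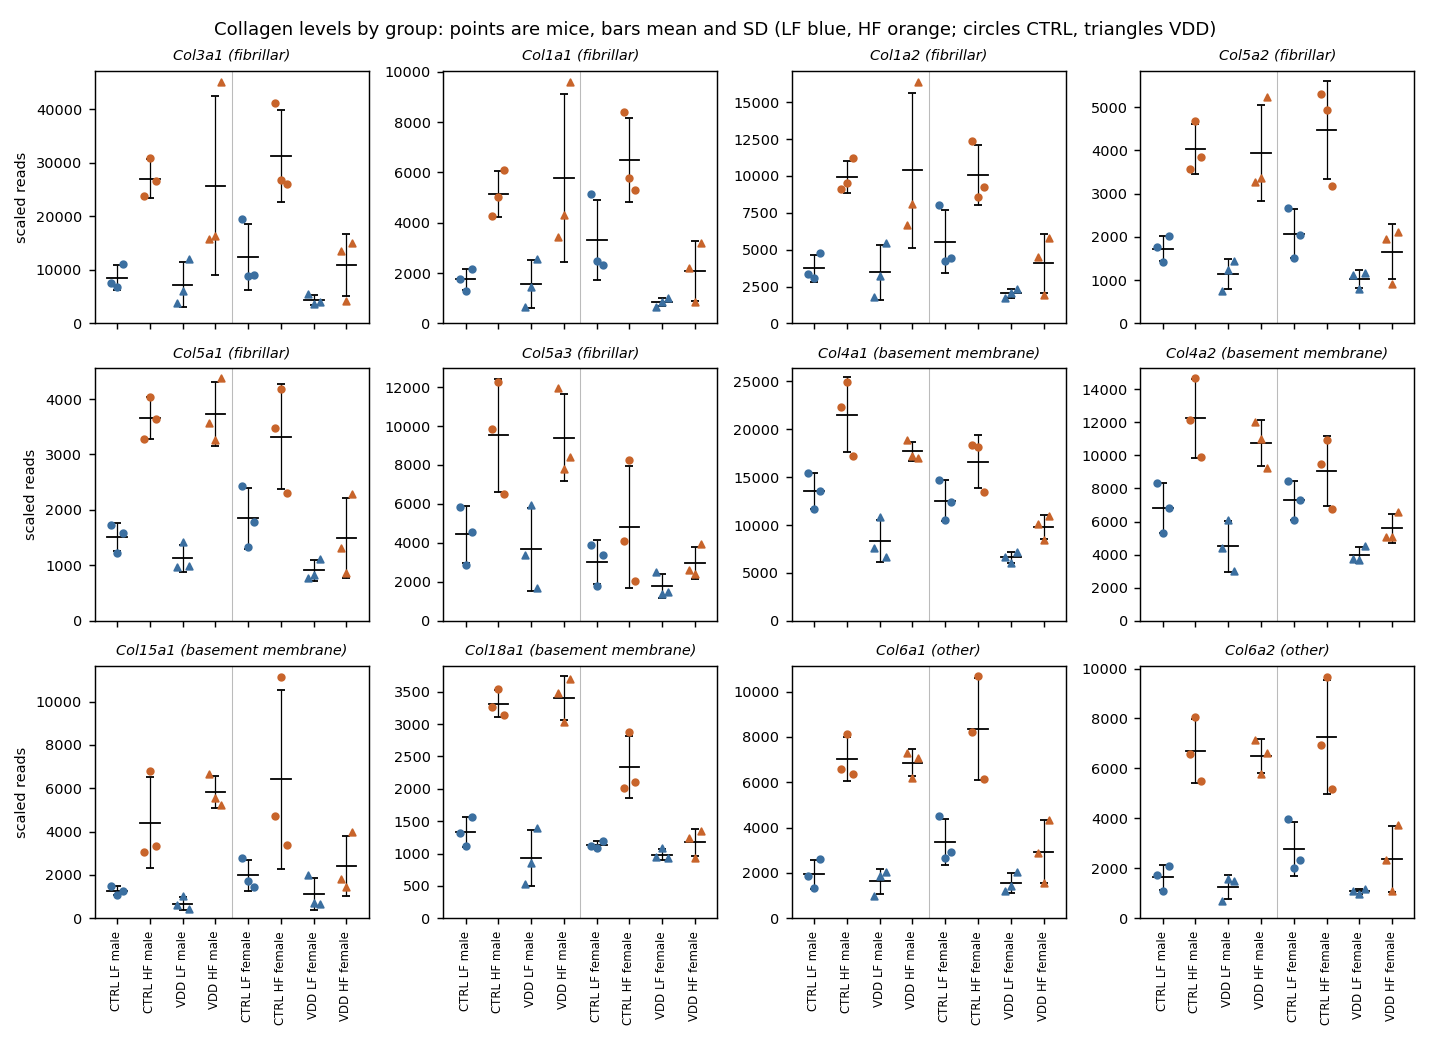
Scaled reads (y axis, starting at 0) of 12 collagens in the 8 groups (x axis), with 1 point per mouse and the mean ± SD of 3 mice. In the 4 male groups HF points lie above LF points for each gene shown, and the VDD HF female points lie lower than those of the other HF groups for genes such as Col6a2 (1087 to 3721 against at least 5168).

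Within single pairs of groups the same genes were tested with 6 libraries each, and limma called no collagen in any of the 4 diet pairs (the background over all genes was 0.0578% for CTRL mice and 0.0752% for VDD mice among males, and 0% in both female pairs). limma-voom also called 0. At an unadjusted p under 0.05 there were 18 of 34 collagens in CTRL males (18.8% of all genes), 17 of 35 in VDD males (25.9%), 20 of 36 in CTRL females (28.8%) and 6 of 34 in VDD females (5.05%). At an adjusted p under 0.05 there were 11 in CTRL males (background 1.17%), 10 in VDD males (5.35%), 5 in CTRL females (7.4%) and 0 in VDD females (0%). Fitting the VDD male pair with all 24 libraries gave 10 called collagens, and leaving out VDD LF male 2310 gave 5. The median log2 change over collagens was 0.71 in CTRL males, 1.31 in VDD males, 0.81 in CTRL females and 0.31 in VDD females, with medians over all genes between −0.02 and 0.01.

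The 3 HF mice lay above the 3 LF mice for 18 of 34 collagens in CTRL males (13% of all genes) and for 16 of 35 in VDD males (17%). They did so for 16 of 36 in CTRL females (16.9%) and for 2 of 34 in VDD females (5.55%), the 2 being Col4a1 and Col4a2, named here after their values were seen. The reverse order held for Col11a2 alone in CTRL males (11.7% of all genes) and in CTRL females (18.2%), and for 0 collagens in VDD males (16.5%) and VDD females (6.06%). All 14 abundant collagens had a positive change in each of the 4 pairs, from 0.24 for Col18a1 in VDD females to 3.17 for Col15a1 in VDD males. The largest changes in CTRL males were those of Col6a2 (2.06 ± 0.26), Col6a1 (1.90 ± 0.25) and Col6a3 (1.86 ± 0.22). In VDD males they were those of Col15a1 (3.17 ± 0.32), Col22a1 (3.14 ± 2.01) and Col16a1 (2.49 ± 0.66). Col22a1, a collagen of the junction between muscle and tendon, was at 115, 87 and 52.7 scaled reads in the 3 libraries with the most striated muscle markers and at most 38.1 elsewhere. In CTRL females the largest changes were those of Col6a4 (1.81 ± 0.66), Col15a1 (1.53 ± 0.44) and Col11a1 (1.53 ± 1.18), and in VDD females those of Col15a1 (1.16 ± 0.53), Col3a1 (1.15 ± 0.48) and Col1a1 (1.11 ± 0.46).

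Whether the diet change depended on the dam's diet or on sex was tested directly in the fit of 24 libraries, and limma called 0 of 39 collagens in each of the 3 interactions (background 0% for diet by mother in males and in females, and 0.0272% for diet by sex). At an unadjusted p under 0.05 there were 1, 3 and 9 collagens (4.1%, 6.36% and 8.92% of all genes), and limma-voom also called 0. For diet by sex the median difference, male minus female, was 0.47 over the collagens and −0.01 over all genes, and it was positive for all 14 abundant collagens. Col18a1 had the smallest adjusted p there, with a difference of 1.02 ± 0.24 (adjusted p = 0.19), and the largest differences were Col22a1 (1.98 ± 1.52), Col12a1 (1.73 ± 0.56) and Col9a2 (−1.70 ± 1.21). For diet by mother the median difference, VDD minus CTRL, was 0.40 over the collagens in males and −0.40 in females. Medians over all genes were 0.03 and −0.02. Of 39 collagens 31 were positive in males and 13 in females, and of the 14 abundant collagens 13 and 5. The largest differences in males were Col22a1 (2.12 ± 2.16), Col6a5 (2.11 ± 1.49) and Col24a1 (1.51 ± 1.38). In females they were Col6a4 (−2.55 ± 1.74), Col4a3 (−1.82 ± 0.76) and Col17a1 (−1.78 ± 1.53), with the standard error at or above 0.76 for each. Col9a2, a cartilage collagen, stood at 163 scaled reads in CTRL HF female 2292 and 49.4 in VDD HF female 2121, both rich in steroid-producing genes, and at most 14.6 in the other 22 libraries.

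**Figure D4:**
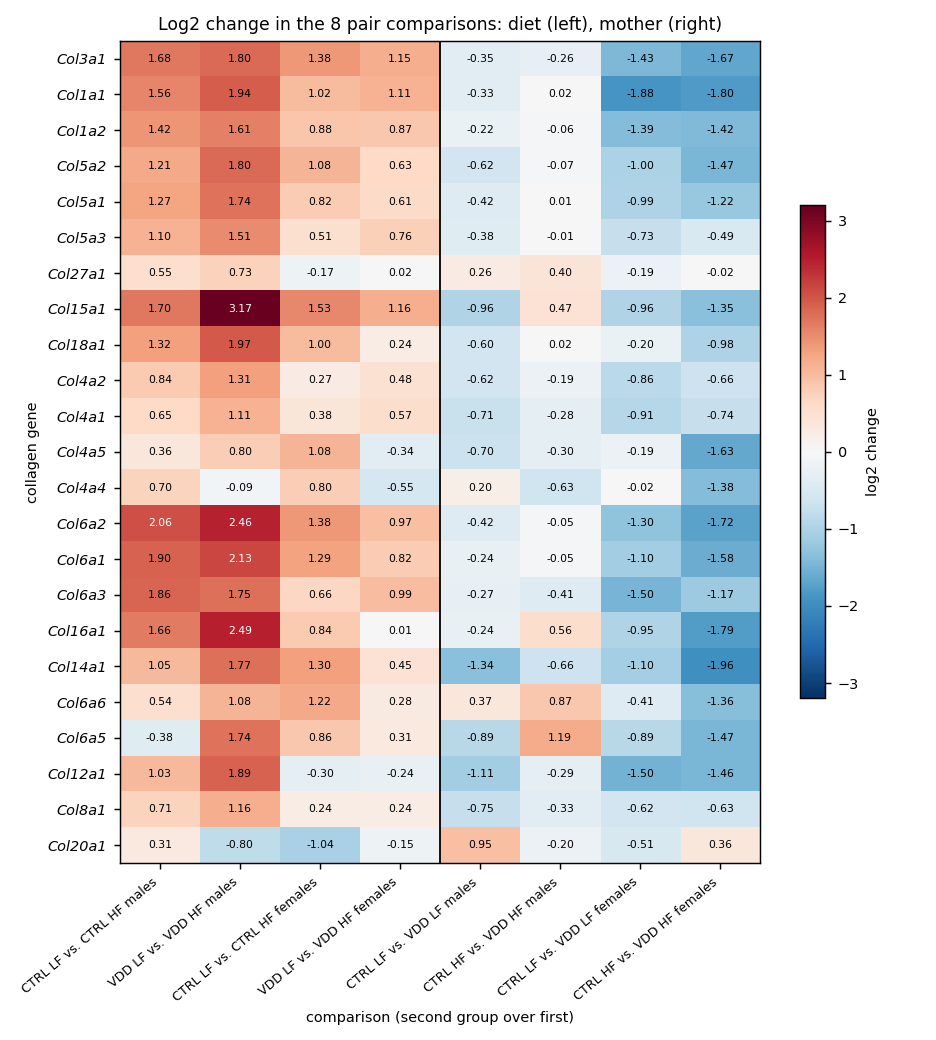
Log2 change of the 23 collagens with a mean of at least 100 scaled reads (rows) in the 8 pair comparisons (columns, second group over first), diet comparisons on the left and maternal comparisons on the right. Diet columns are mostly positive, reaching 3.17 for Col15a1 in VDD males, and the maternal columns of females are mostly negative, reaching −1.96 for Col14a1.

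The dam's diet was asked about by comparing VDD with CTRL, averaged over sexes and diets. Of 39 collagens, 31 were lower and 8 higher, with a median log2 change of −0.54 against −0.01 over all genes. Col4a1 alone was called (−0.66 ± 0.10, adjusted p = 0.00466), where 0.103% of all genes were. The call was lost when the 7 libraries with markers of other tissues were left out, a fit in which 0 genes of the whole table were called, and its log2 change was then −0.70, and leaving out single libraries gave between 0 and 6 called collagens (6 without VDD HF female 2121) and ended the call of Col4a1 in 11 of 24 fits. The 14 abundant collagens were all lower, between −1.27 and −0.41. At an adjusted p under 0.05, 13 collagens were lower and 0 higher, where 2.05% of all genes were lower. Col14a1 (−1.27 ± 0.34, adjusted p = 0.0408), Col4a6 (−1.11 ± 0.59) and Col12a1 (−1.09 ± 0.28) had the largest changes. The share of collagens that were lower in each of the 4 strata was 14 of 39, against 12.8% of all genes.

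In the 4 maternal pairs limma and limma-voom called no collagen, and limma called no gene of the whole table in any of them (0%). The paper, which tested reads with DESeq2, reported differentially expressed genes in each of these pairs at an adjusted p under 0.01. The reason for the difference was not tested. At an unadjusted p under 0.05 there were 6 of 33 collagens in LF males (6.79% of all genes), 3 of 34 in HF males (5.31%), 14 of 34 in LF females (12%) and 20 of 36 in HF females (16.7%). The median log2 change over collagens was −0.27, −0.05, −0.68 and −1.37 in that order, with medians over all genes between 0.00 and 0.01. In LF females all 3 VDD mice lay below all 3 CTRL mice for 13 of 34 collagens (9.74% of all genes), and in HF females for 16 of 36 (11.8%). In LF males this held for 4 of 33 (6.59%), Col12a1, Col15a1, Col4a1 and Col8a1, and in HF males for 1 of 34 (5.25%), Col6a3. The opposite order, all VDD mice above all CTRL mice, held for 1 of 33 in LF males (6.83%), Col7a1, and for 3 of 34 in HF males (5.04%), Col11a2, Col24a1 and Col27a1. It held for 0 of 34 in LF females (8.48%) and 0 of 36 in HF females (11.1%). These maternal pairs use the same libraries as the diet pairs, so a low VDD LF group enters both.

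The values of Col1a1 given above show the pattern in LF females, with 673 to 1015 scaled reads in VDD against 2323 to 5137 in CTRL mice and a log2 change of −1.88 ± 0.32 (adjusted p = 0.391). Col12a1 (−1.50 ± 0.54) and Col6a3 (−1.50 ± 0.37) were the next largest there. In HF females the largest were Col6a4 (−2.83 ± 1.70), Col8a2 (−2.16 ± 0.64) and Col14a1 (−1.96 ± 0.54). Col14a1 had 2669, 1608 and 2124 scaled reads in CTRL HF and 972, 211 and 727 in VDD HF females, which did not overlap (adjusted p = 0.18). In LF males the largest were Col7a1 of anchoring fibrils (1.92 ± 0.54), Col4a6 (−1.42 ± 1.44) and Col14a1 (−1.34 ± 0.82), and in HF males Col24a1 (1.61 ± 0.53), Col7a1 (1.43 ± 0.71) and Col6a5 (1.19 ± 1.09). Col4a6 shows how far 1 library can reach, with 3.84, 2.97 and 211 scaled reads in VDD LF males, the last in male 2310.

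Sex was compared in the same fit. Averaged over diets and maternal groups, 20 collagens were higher in males and 19 lower (median 0.00, and −0.01 over all genes), and 5 were called, where 7.3% of all genes were. Col24a1, a fibrillar collagen (2.10 ± 0.49, adjusted p = 0.00507), and Col5a3 (1.08 ± 0.23, adjusted p = 0.00322) were higher in males. Col24a1 was low, at 0 to 14.3 scaled reads in females and 2.49 to 83.1 in males, and entered the test mainly through its male libraries. For each of these 2 genes males lay above females without overlap in 1 of the 4 strata of mother and diet. Col6a4 (−2.38 ± 0.61, adjusted p = 0.00995), Col8a2 (−1.31 ± 0.33, adjusted p = 0.00886) and the fibrillar Col27a1 (−1.05 ± 0.24, adjusted p = 0.00397) were lower in males. Col6a5 was not called (1.99 ± 0.53, adjusted p = 0.0117). Without the 7 libraries 2 collagens were called, and of the 5 only Col8a2 (−1.34) was among them, the others having log2 changes of 2.66 (Col24a1), 1.03 (Col5a3), −1.51 (Col6a4) and −0.67 (Col27a1). Leaving out 1 library at a time ended the call of Col8a2 in 20 of 24 fits, of Col6a4 in 18 and of Col24a1 in 6, and gave between 2 and 8 called collagens (8 without VDD HF female 2081).

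Col6a4 ranged from 2.49 to 10.9 scaled reads among the CTRL males and from 2.97 to 39.8 among the VDD males. In females it was 45.7, 65.6 and 19.1 in CTRL LF, 135, 59.4 and 337 in CTRL HF, 15, 31.7 and 65.5 in VDD LF and 1.28, 9.8 and 313 in VDD HF mice. The 3 highest values were those of CTRL HF females 2290 and 2292 and VDD HF female 2121, which held the most reads on steroid-producing genes, and the part of that tissue in the result was not tested. Col8a2 was at 116, 117 and 116 scaled reads in CTRL LF females and at 29.3, 27.4 and 35.5 in CTRL LF males. It was at 197, 139 and 207 in CTRL HF females and at 29.1, 33.5 and 46.5 in CTRL HF males, so CTRL sexes did not overlap under either diet. VDD HF females, at 30.8, 16.7 and 111, overlapped the VDD HF males at 39.3, 33.9 and 47.6. Smooth muscle and epithelial markers moved with sex as well, Cnn1, Myh11 and Tagln of the 10 mural markers and Krt8, Krt18 and Krt19 of the 10 mesothelial markers being called as lower in males (Cnn1 by a log2 change of −5.28), and their part was not tested. Of 10 macrophage markers 9 were higher in males (median 0.89), and Gpnmb, Cd68, Cd163 and Mrc1 were called. Of all genes, 2.76% were called higher and 4.54% lower in males. All 12 striated muscle markers were higher in males too (median 1.61), with 0 called and 0 at an unadjusted p under 0.05. Summed over the mural list, levels ran from 5484 to 36758 scaled reads in males and from 5898 to 45990 in females, and over the macrophage list from 6360 to 38972 in males and from 5143 to 23639 in females.

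**Figure D5:**
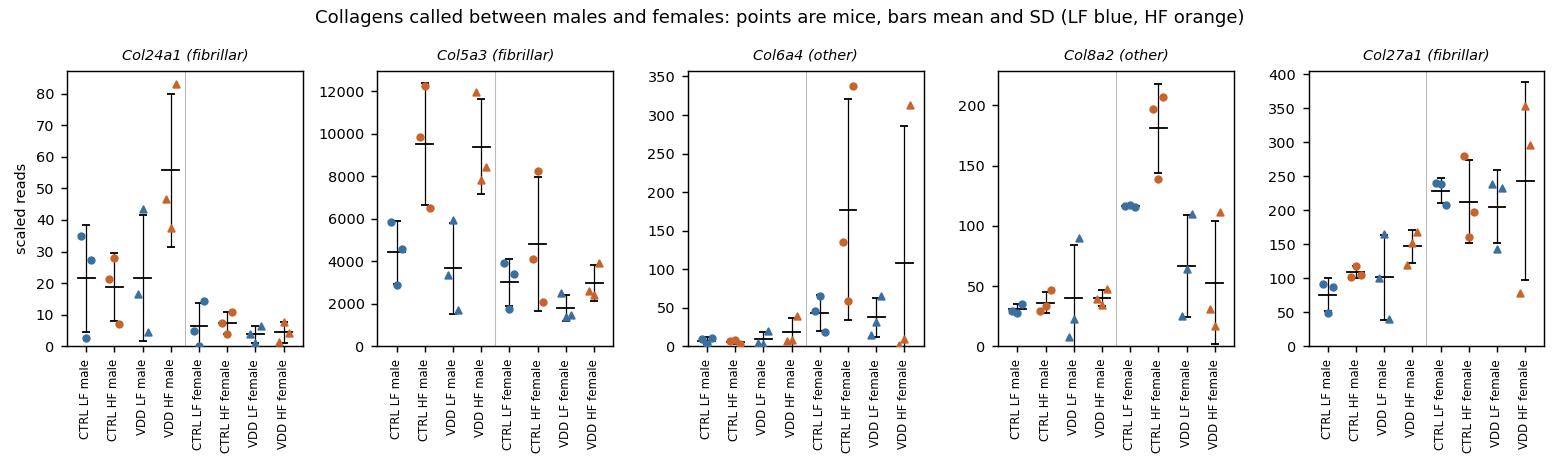
Scaled reads (y axis, starting at 0) of the 5 collagens called between males and females, by group (x axis), with 1 point per mouse and the mean ± SD of 3 mice. Col8a2 reaches 116 to 207 in CTRL females and 27.4 to 46.5 in CTRL males, and single female libraries at 337 and 313 set the Col6a4 means.

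Genes that make and handle collagen were counted from lists in the same fit of HF against LF, where 5.79% of all genes were called higher and the median log2 change was 0.01. Of 25 tested genes of collagen biosynthesis 7 rose and 0 fell (median log2 change 0.48), led by Serpinh1, the collagen chaperone (1.48 ± 0.19, adjusted p = 3.05e-05). The others were Pcolce2 (1.26), Pcolce (1.21), Adamts14 (1.17), Adamts2 (1.03) and Bmp1 (0.83), which process procollagen ends, and the folding enzyme Fkbp10 (0.69). Of 6 crosslinking genes the lysyl oxidase-like enzymes Loxl1 (1.10), Loxl2 (1.05) and Loxl3 (0.69) rose. Of 11 fibril-associated proteoglycans and glycoproteins 5 rose, Dpt (1.30), Prelp (1.12), Sparc (1.03), Bgn (0.97) and Tnxb (0.79). Genes of breakdown rose too, 4 of 16, namely the macrophage elastase Mmp12 (3.12 ± 0.53), the collagen uptake receptor Mrc2 (1.15), the proteinase Ctsk (0.85) and the gelatinase Mmp2 (0.75). Of 16 basement membrane partners 4 rose, Lama3 (1.10), Nid2 (1.08), Pxdn (0.62) and Hspg2 (0.59), and Lamc1, with the smallest p of that list, had a log2 change of 0.51 and missed the fold threshold.

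For receptors and signals the counts stood near that background. Of 11 collagen receptors 1 rose, the integrin Itga11 (1.10 ± 0.25), and Antxr2 had the smallest p with a log2 change of 0.57. Of 20 genes of TGF-beta signalling 1 rose, Thbs1 (1.53 ± 0.37), an activator of latent TGF-beta, while Tgfb1 had the smallest p with a log2 change of 0.53, and the list median was 0.12. For the dam's diet, 1 gene of these 7 lists was called, the laminin chain Lama2 (−0.72 ± 0.11, adjusted p = 0.00466), where 0.103% of all genes were. With the 7 libraries with markers of other tissues left out, 0 genes of the whole table were called. The list medians for the dam's diet were all below 0, from −0.69 for crosslinking to −0.14 for TGF-beta signalling. Between sexes, 2.76% of all genes were called higher and 4.54% lower in males. The list genes called higher in males included Hspg2, Nid1, Pcolce2, Ctsk, Ctsl, Mmp12, Timp3, Timp4, Lox, Dpt and Prelp. Their log2 changes ran from 0.60 (Ctsl) to 2.97 (Mmp12, the macrophage elastase). The list genes called lower in males were Lama1 (−3.60), Inhba (−2.36), Mmp16 (−1.95), Plod2 (−1.39), Lum (−1.32) and Bambi (−0.99).

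Cell type markers were set beside these values in the same contrast, again with 5.79% of all genes called higher. Of 12 markers of adipose fibroblasts and progenitors 4 rose under HF, Thy1 (1.44), Mfap5 (1.01), Cd34 (0.96) and Fap (0.76), the list median being 0.63. Their summed level ran from 5266 to 12528 scaled reads in LF libraries and from 5657 to 19224 in HF libraries. It ran from 10006 to 12528 in CTRL LF and from 14846 to 19224 in CTRL HF males. In females it ran from 7685 to 9451 in CTRL LF and from 13310 to 14995 in CTRL HF mice. The CTRL pairs thus did not overlap between diets, whereas the VDD pairs of both sexes did. Of 10 macrophage markers Itgax (2.04) and Cd68 (0.94) rose, and the summed level ran from 5143 to 24853 in LF and from 6184 to 38972 in HF libraries. The 10 adipocyte markers went the other way, 8 being lower with a list median of −0.39, and Cidec fell (−0.66) while Lep rose (2.50). Their summed level ran from 337628 to 891073 in LF and from 312533 to 619828 in HF libraries. Of 10 endothelial and 10 mural markers 0 and 1 were called under HF. At an unadjusted p under 0.05 there were 5 and 4, where 7302 of 18399 genes passed. Of the 12 fibroblast, 10 macrophage and 10 adipocyte markers 10, 9 and 6 passed. In VDD HF females 2081, 2083 and 2121 the collagen share was 0.311%, 0.207% and 0.416%. Their summed fibroblast level was 12146, 5657 and 9838. Female 2083 had both the lowest share and the lowest fibroblast level. The highest share was in female 2121 and the highest fibroblast level in female 2081. Under VDD all 12 fibroblast, 10 macrophage, 10 mesothelial and 10 endothelial markers were lower, with list medians of −0.48, −0.40, −0.76 and −0.20. limma called 0 of them, and 10, 2, 2 and 3 had an unadjusted p under 0.05, where 4214 of 18399 genes did. Of the 10 mural and 10 adipocyte markers 6 and 3 had such a p under VDD, and 0 were called. All 12 striated muscle markers were higher under VDD with a list median of 2.78, the largest of the marker lists in size, although 0 were called and 1 had an unadjusted p under 0.05. Their summed level ran from 171 to 75626 scaled reads in CTRL and from 247 to 1118670 in VDD libraries. Of 8 brown adipocyte markers 5 had an unadjusted p under 0.05 under VDD. Of these Cox7a1 (2.36) and Cox8b (1.99) were called as higher, where 0.0761% of all genes were. The summed brown adipocyte level was 3104, 22211 and 39154 scaled reads in VDD HF females 2081, 2083 and 2121. It was 339 to 1055 in CTRL HF females and 1354 to 10462 in CTRL LF females. The part of brown adipocytes in the collagen values was not tested. With the 7 libraries with markers of other tissues left out, 0 genes of the whole table were called, and the part of those tissues was not tested. No defining marker of fibroblasts or macrophages was at 0 in a group, and the part of cell numbers in the collagen values was not tested.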

How the data were processed

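RNA from retroperitoneal white adipose tissue was sequenced in 24 mice. The submitters' processing notes name STAR 2.7.0d, featureCounts 1.6.1, Cufflinks 2.2.1, SAMtools 1.9, MultiQC and DESeq2, with build mm10. The authors deposited 8 tables of 6 libraries, 1 per pair of groups, holding log2(reads divided by a size factor + 1), and 100% of values gave whole reads within 0.02. The 4 entries with a duplicated name were left out, leaving 56895 entries. Recovered reads were scaled over the 24 libraries by the median of ratios. Depth was 13346779 to 18484346 reads on genes. Genes reaching 10 normalized reads in 3 or more libraries were tested with limma 3.58.1 (R 4.3.3, trend), on each table's deposited values for the 8 pairs and on 1 fit of 24 libraries for 6 averaged or interaction contrasts. Calls needed an adjusted p under 0.01 and a fold above 1.5 or below 0.66. Scripts were tested on simulated data. Columns were matched to groups by their names, and the mouse numbers in them are in no label.

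The members and gene lists were chosen with earlier results of these data known. The genes named were the abundant and basement membrane collagens with Col8a1, Col12a1 and Col14a1, every collagen called, the 3 with the largest change in each comparison, and, of the pathway lists, every gene called in an averaged comparison with the smallest p of each list. Others are named to account for the members. A single pathway gene is not reported here. Alternatives were a pseudocount of 10, no filter, a filter of 100 mean reads, limma-voom, upper-quartile scaling, other thresholds, array weights, the word renal in 6 column names as a term, and each library left out. Leaving out 7 libraries together was chosen after seeing the data.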

Additional observations from a re-analysis of the deposited data

How the results depend on the processing

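The 14 collagens that rose under HF on average kept their call under each alternative run, and leaving out single libraries gave 14 to 15 called collagens. Other counts moved, and the cause was not tested except where the threshold itself was changed. Counts at an unadjusted p under 0.01 with the fold threshold follow, each with the share of all genes that passed. For the diet they were 15 of 34 in CTRL males (6.8%), 12 of 35 in VDD males (10.3%) and 8 of 36 in CTRL females (10.3%). For the dam's diet they were 2 of 33 in LF males (1.46%), 11 of 34 in LF females (1.81%) and 9 of 36 in HF females (4.99%). Averaged comparisons gave 12 of 39 for VDD against CTRL (3.39%) and 8 of 39 for sex (12%), and diet by sex gave 3 of 39 (1.84%). At an adjusted p under 0.05 they were 11 and 10 for the diet in CTRL and VDD males, 5 in CTRL females, 13 for VDD against CTRL and 12 for sex, where 1.17%, 5.35%, 7.4%, 4.59% and 19.8% of all genes passed. Without the filter on low values they were 4 and 1 for the diet in CTRL and VDD males and 3 for sex (39, 37 and 1367 genes of the whole table), and with a pseudocount of 10 the count was 1 for the diet in CTRL males (15 genes). A single fit of 24 libraries gave 10 for the diet in VDD males (863 genes). For VDD against CTRL, upper-quartile scaling gave 2 (41 genes), array weights 15 (926 genes) and leaving out the 7 libraries 0 (0 genes). For sex, array weights gave 10 (2437 genes) and leaving out the 7 libraries 2 (515 genes), and for diet by sex array weights gave 1 (8 genes). Leaving out single libraries gave 0 to 5 for the diet in VDD males, 0 to 6 for VDD against CTRL and 2 to 8 for sex. No direction of a called gene turned. No paired analysis was possible because the columns carry mouse numbers that are in no label. Depth limits the members under 10 reads, which were not tested, and 3 mice per group limit the single pairs.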
